A study of Mus musculus with 6 samples.

Results

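The miR-200 family of mouse mesangial cells was examined as the rows named for the hairpins miR-200a, miR-200b, miR-200c, miR-141 and miR-429, on either arm, which gave 7 of the 778 mature miRNAs in the table. Small RNA was sequenced from primary mesangial cells, which support the capillaries of the kidney glomerulus, in 3 control libraries and 3 libraries from cells given TGF-β1 (transforming growth factor β1, a driver of fibrosis) at 10 ng/ml for 72 h. Both groups were grown in 25.5 mM glucose with 20% foetal bovine serum between passages 3 and 6, so that high glucose was a feature of the controls too. Whether the controls received a vehicle, and how long they were cultured, is not stated in the sources used here. No label says whether the 3 libraries of a group are separate cultures, so p-values measure the spread between these libraries, which may be technical. The comparison asked which members change in abundance following TGF-β1 treatment.

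The family is made from 2 genomic clusters and is a hallmark of epithelial cells. Its 3p strands repress the transcription factors Zeb1 and Zeb2, which in turn repress the transcription of both clusters, and TGF-β signalling is known to push this double-negative loop towards the mesenchymal state. In the kidney the family has been studied in fibrosis and in the mesangial response to TGF-β1. The targets of a miRNA are set mainly by its seed, the bases from position 2 to position 8.

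The 3p strands are shown first because they carry most of the reads and because they define the seed classes. The sequences are those of RefSeq (build GRCm38.p6), written from the 5′ end with the seed in capitals.

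mmu-miR-200b-3p: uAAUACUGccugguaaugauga
mmu-miR-429-3p: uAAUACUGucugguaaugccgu
mmu-miR-200c-3p: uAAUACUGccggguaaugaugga
mmu-miR-200a-3p: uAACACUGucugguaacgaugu
mmu-miR-141-3p: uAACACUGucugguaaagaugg

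The seed AAUACUG is shared by 3 members and the seed AACACUG by 2, and no other of the 1679 mature mouse miRNAs of the RefSeq table has either. The classes differ in the seed by 1 base, U4C from miR-200b-3p to miR-200a-3p, counted from the 5′ end. MiR-200b-3p and miR-200c-3p differ at 2 of 22 compared positions (U11G and A22G), and miR-200a-3p and miR-141-3p also at 2 (C17A and U22G), while the neighbours miR-200b-3p and miR-200a-3p differ at 4. MiR-429-3p and miR-200c-3p differ at 5 although they share a seed. How reads with mismatches or with several matches were assigned is not given in the sources used here, so a few reads of one strand may have been counted for its near copy.

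The 5p strands in the table were those of the miR-200b and miR-200a hairpins, which share the seed AUCUUAC. They are shown because their levels differed widely although their 5′ ends are alike.

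mmu-miR-200b-5p: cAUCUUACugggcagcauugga
mmu-miR-200a-5p: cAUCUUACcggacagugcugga

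On the NCBIM37 mouse genome, in GENCODE vM1, Mir200b lies at chr4:155429790-155429859, Mir200a at chr4:155429005-155429094 and Mir429 at chr4:155428014-155428096. All 3 are on the minus strand, within 1846 bp, within an intron of Ttll10, a protein-coding gene on the same strand. They also lie within the noncoding transcript Gm13648, where Mir429 overlaps an exon and the other hairpins are intronic. Mir200c lies at chr6:124668340-124668408 and Mir141 at chr6:124667932-124668003, on the minus strand and within 477 bp. Both are in an intron of the noncoding transcript Gm15884, between the protein-coding genes Phb2 and Ptpn6.

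Values are in RPM, the reads of a miRNA scaled to a fixed library total, with no scaling by length. Library totals ran from 16478281 to 17623671 reads in control and from 17086815 to 20169254 in TGF-β1-treated cells. At these depths 1 read was worth 0.0496 to 0.0607 RPM, and the detection limit was taken as 3 reads, worth 0.149 to 0.182 RPM. Exact intervals and upper limits are two-sided at 95% and so lie somewhat higher for a count of 0. These limits cover counting error only, because PCR reads are not independent molecules. Beside the labelled cell type, mesenchymal miRNAs were read as a description (miR-143-3p, miR-145-5p, miR-199a-3p, miR-199a-5p and miR-214-3p). Their summed level was 2587 to 2962 RPM in control and 2609 to 3075 after TGF-β1, nearly all of it miR-143-3p and miR-199a-3p. Of these 5, 0 passed both the adjusted p and the fold threshold, against 7.84% lower and 4.41% higher of all 408 tested miRNAs. An adjusted p below 0.05 in limma, without the fold threshold, was reached by 3. The share of all tested miRNAs that reached it is not given here, so this count is a description only. MiR-145-5p was higher (127.4 ± 26.7 and 238.6 ± 7.91 RPM), and miR-199a-3p (601.3 ± 57.4 and 483.98 ± 3.86 RPM) and miR-199a-5p (14.0 ± 2.04 and 6.93 ± 2.25 RPM) were lower after TGF-β1 (SD, n = 3 each). Their part in the results was not tested. The endothelial miR-126 strands summed to at most 0.298 RPM in any library. In control the tubule-enriched miR-192-5p, at 296.9 RPM, lay above miR-145-5p, miR-199a-5p and miR-214-3p but below miR-143-3p and miR-199a-3p. These levels alone do not identify the cells.

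After TGF-β1 the chromosome 4 cluster was at 8.93% of its control level, summed over its rows. The chromosome 6 cluster was at the detection limit in both groups. All 4 members with enough reads to be tested were lower in every TGF-β1-treated library than in every control library. The same held for 36% of all 408 tested miRNAs. Those members were miR-200a-3p, miR-200b-3p, miR-200b-5p and miR-429-3p, which had 9.73%, 8.91%, 7.67% and 7.27% of their control means. MiR-200a-5p, miR-200c-3p and miR-141-3p had 4, 3 and 1 reads in all 6 libraries together and were not tested.

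MiR-200a-3p, the AACACUG member of the chromosome 4 cluster, was the most abundant of the family. It had 13.4, 11.99 and 12.7 RPM in control replicates 1 to 3 (221, 200 and 223 reads), and 1.34, 0.726 and 1.64 RPM in TGF-β1 replicates 1 to 3 (27, 13 and 28 reads). The control libraries lay close together and the highest treated library was far below the lowest of them. The mean was 12.7 ± 0.712 RPM in control and 1.23 ± 0.465 RPM after TGF-β1 (SD, n = 3 each). On log2(RPM + 1), limma put the difference at -2.64 ± 0.18 (SE), at an adjusted p of 4.17e-05.

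MiR-200b-3p, which represents the AAUACUG seed in the same cluster, had 8.13, 5.52 and 6.58 RPM in the control libraries (134, 92 and 116 reads). It had 0.892, 0.558 and 0.351 RPM after TGF-β1 (18, 10 and 6 reads). Its control libraries were more spread than those of miR-200a-3p, but the groups did not overlap. The mean was 6.74 ± 1.32 RPM in control and 0.601 ± 0.273 RPM after TGF-β1 (SD, n = 3 each), and limma put the log2 difference at -2.27 ± 0.18 (SE), at an adjusted p of 6.05e-05.

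MiR-429-3p has the same seed and comes from the hairpin at the 3′ end of the cluster. It had 3.82, 4.62 and 3.52 RPM in control (63, 77 and 62 reads) and 0.298, 0.279 and 0.293 RPM after TGF-β1 (6, 5 and 5 reads). The treated libraries were nearly equal and all stood just above the level of 3 reads. Its control mean of 3.99 ± 0.567 RPM stood against 0.290 ± 0.00953 RPM after treatment (SD, n = 3 each), a log2 difference of -1.94 ± 0.13 (SE) with an adjusted p of 4.17e-05 in limma.

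MiR-200b-5p is the other strand of the miR-200b hairpin. It had 1.88, 2.28 and 2.21 RPM in control (31, 38 and 39 reads) and 0.149, 0.223 and 0.117 RPM after TGF-β1 (3, 4 and 2 reads). Every treated library was thus at or near the detection limit. The group means were 2.12 ± 0.213 and 0.163 ± 0.0546 RPM (SD, n = 3 each), and the log2 difference was -1.42 ± 0.12 (SE), with an adjusted p of 6.05e-05 in limma.

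**Figure D1:**
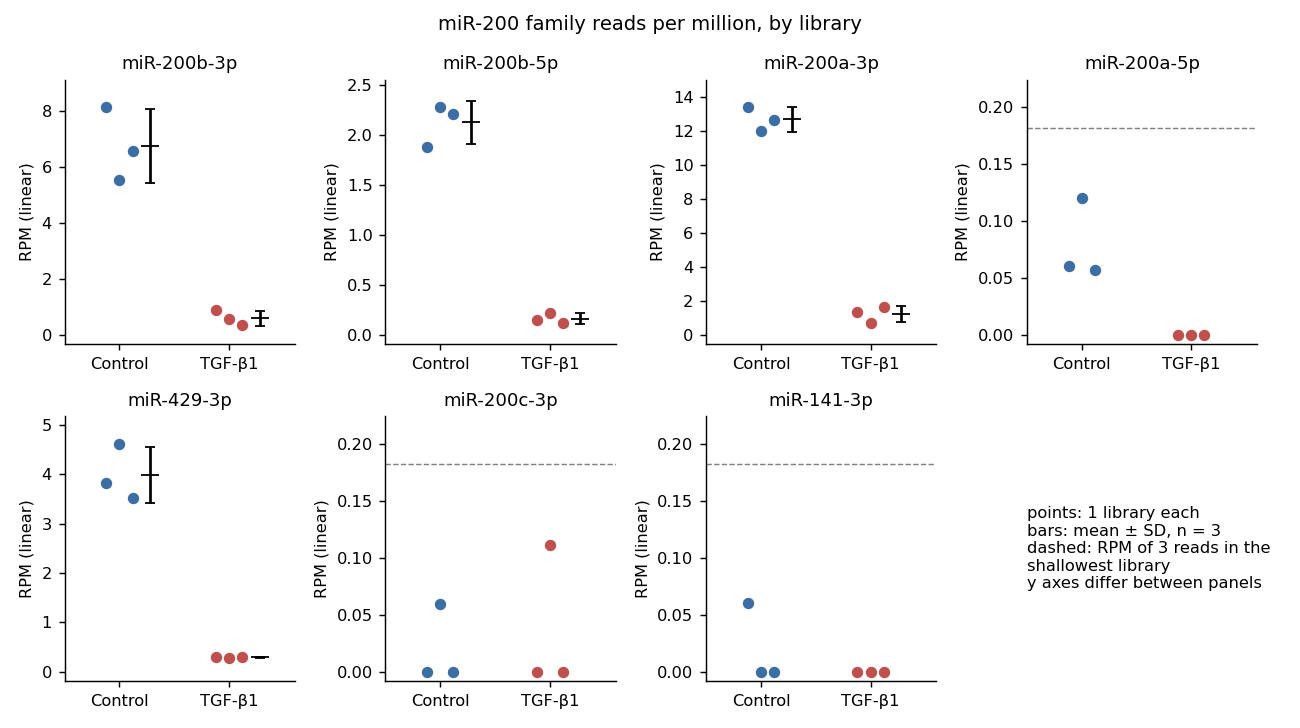
RPM (linear axes, which differ between panels) of the 7 members in each control and TGF-β1-treated library; points are libraries, bars, drawn for the tested members, are the mean ± SD (n = 3), and the dashed line, drawn for the others, is the level of 3 reads in the shallowest library. The 4 tested members, such as miR-200a-3p at 12.7 against 1.23 RPM on average, did not overlap between groups. Of all 408 tested miRNAs, 36% were likewise lower in every treated library. The points of miR-200a-5p, miR-200c-3p and miR-141-3p lie below the dashed line.

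Among the 408 miRNAs tested, 7.84% were called lower and 4.41% higher, where a call needed an adjusted p below 0.05 together with a log2 difference of more than 1 in size. With TMM scaling the split moved from 32 lower and 18 higher to 24 and 25. Of the family, 4 of 4 tested members were called lower and 0 higher. In 36% of the tested miRNAs every treated library was below every control library. The count for the family is a description, because the filter on low reads favours a member that is high in 1 group: its limit was about 0.58 RPM, which miR-200a-3p exceeded in all 3 treated libraries, miR-200b-3p in 1 and miR-200b-5p and miR-429-3p in 0.

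By the ratio of group means the 4 members held ranks 2 to 5 among the tested miRNAs, counted from the lowest. The ranks given here are a description too, because the same filter favours a miRNA that is high in control only. Rank 1 was miR-1247-3p, named after its values were seen, with 48 reads in control and 0 after TGF-β1. The median tested miRNA had 85.9% of its control mean. On log2(RPM + 1) the members ranked 1, 5, 8 and 19, because adding 1 RPM shrinks the change of the less abundant strands most. The order of the 4 changes therefore turned over with the scale: edgeR on the recovered reads with library totals gave -3.35 for miR-200a-3p, -3.45 for miR-200b-3p, -3.65 for miR-200b-5p and -3.75 for miR-429-3p. Over all tested miRNAs the log2 change had a median of -0.17, or of -0.07 with TMM scaling, under which the 4 members changed by -2.53 to -1.36. The rows of the table together took 79.5% to 79.8% of the library totals in control and 71.6% to 73.1% after TGF-β1. With values scaled to the sum of the rows instead, the 4 members changed by -2.53 to -1.37, against -2.64 to -1.42 with library totals. The log2 ratio of the chromosome 4 cluster sum was then -3.34, against -3.49. Beyond this rescaling, the part of the shift in the changes of the family was not tested.

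**Figure D2:**
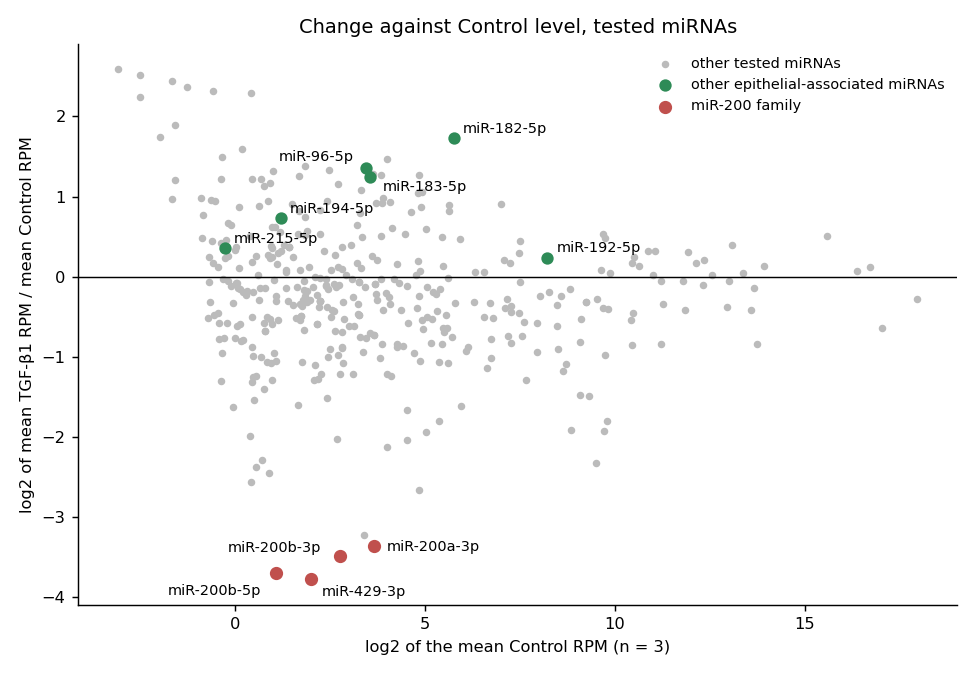
The log2 ratio of the group means is plotted against the log2 mean control RPM (n = 3 libraries a group) for the tested miRNAs except miR-1247-3p, which had 0 reads after TGF-β1. The 4 miR-200 members lie at the bottom, from -3.36 to -3.78, and the other tested epithelial-associated miRNAs lie above 0.

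The size of these falls was given intervals for counting error only. Libraries of a group differed by more than sampling noise, so these intervals are too narrow for the spread between libraries. With the reads of a group summed and set against its library totals, miR-200a-3p was at 9.72% of control (exact 95% interval 7.46% to 12.5%) and miR-200b-3p at 9.15% (6.23% to 13.0%). MiR-429-3p was at 7.29% (4.09% to 12.1%) and miR-200b-5p at 7.67% (3.42% to 15.1%). All 4 intervals overlapped, so no difference in fold between members was detectable at this depth from the counts.

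The same was seen when members were compared within each library, as a log2 ratio of RPM + 0.1. Across seeds, the ratio of miR-200a-3p to miR-200b-3p averaged 0.92 ± 0.20 in control and 0.94 ± 0.88 after TGF-β1 (SD, n = 3 each), a difference of 0.019 ± 0.52 (SE; exact two-sided permutation p = 1). Within the AAUACUG seed, the ratio of miR-429-3p to miR-200b-3p averaged -0.74 ± 0.43 and -0.77 ± 0.56 (SD, n = 3 each), a difference of -0.037 ± 0.41 (SE; exact two-sided permutation p = 1). With 3 libraries a group the exact p cannot be below 0.1, and after adjustment over the 3 pairs compared each p was 1. These p-values do not show that the members fell by the same fold. In TGF-β1 replicate 3 the log2 ratio of miR-200a-3p to miR-200b-3p was 1.95, against 0.54 and 0.33 in replicates 1 and 2. The difference was -0.49 without that library and -0.083 without control replicate 1, so that its direction rested on single libraries. That of miR-429-3p to miR-200b-3p likewise turned to 0.21 without control replicate 2 and 0.24 without TGF-β1 replicate 1. Pairs that include miR-200c-3p or miR-141-3p gave no ratio, since both strands were at or under 3 reads in both groups.

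The order of the members was the same in both groups. In control the levels of miR-200a-3p, miR-200b-3p, miR-429-3p and miR-200b-5p did not overlap between neighbours. After TGF-β1 the order of the means was kept, but miR-200a-3p and miR-200b-3p overlapped, while miR-429-3p stayed below every library of miR-200b-3p and above every library of miR-200b-5p.

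The composition of the chromosome 4 cluster was followed through the shares of its 3p reads. MiR-200a-3p took 54.2% ± 1.37 of them in control and 57.1% ± 13.2 after TGF-β1 (SD, n = 3 each). MiR-200b-3p took 28.6% ± 3.57 and 28.8% ± 11.6, and miR-429-3p 17.1% ± 3.24 and 14.1% ± 3.26 (SD, n = 3 each). The wide spread in the treated group went with few reads, 51, 28 and 39 in the 3 libraries against 369 to 418 in control. In TGF-β1 replicate 3 miR-200a-3p took 71.8% (28 of 39 reads, exact 95% interval 55.1% to 85.0%), the highest share of the 6 libraries.

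**Figure D3:**
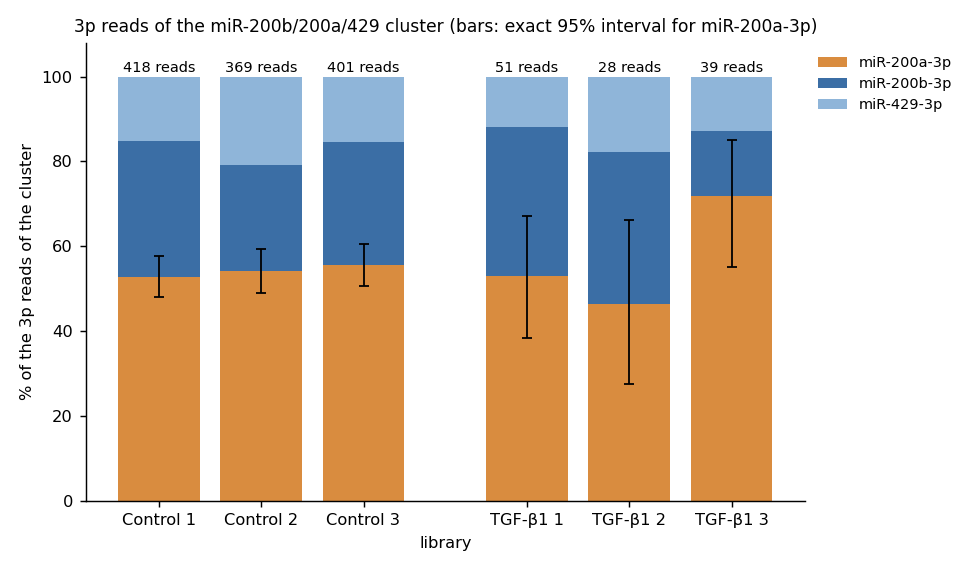
Stacked bars give the percentage of the 3p reads of the chromosome 4 cluster taken by miR-200a-3p, miR-200b-3p and miR-429-3p in each library, with the number of reads above and the exact 95% binomial interval of the miR-200a-3p share as error bars. The miR-200a-3p share was 52.9% to 55.6% in control and 46.4% to 71.8% after TGF-β1, and the intervals of all 6 libraries overlapped.

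As a whole, the 5 rows of the chromosome 4 cluster summed to 27.3, 24.5 and 25.02 RPM in the control libraries and to 2.68, 1.79 and 2.40 RPM in the treated ones. The mean was 25.6 ± 1.49 RPM in control and 2.29 ± 0.456 after TGF-β1 (SD, n = 3 each), 11.2-fold lower. No test was made of this sum, because its members were chosen with results known. By seed, the AAUACUG class summed to 10.7 ± 1.05 RPM in control and 0.928 ± 0.274 after TGF-β1 (SD, n = 3 each), or 8.63% of control. The AACACUG class summed to 12.7 ± 0.743 and 1.23 ± 0.465 RPM (SD, n = 3 each), or 9.72%. The AACACUG class held 54.2% ± 1.32 of the 3p reads in control and 56.0% ± 14.5 after TGF-β1 (SD, n = 3 each), so the seed balance differed by less than the spread between libraries.

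The chromosome 6 cluster added almost nothing to either class. MiR-200c-3p had 0, 1 and 0 reads in the control libraries and 0, 2 and 0 after TGF-β1. MiR-141-3p had 1, 0 and 0 reads in control and 0 in each treated library. At most 3 reads over the 6 libraries were held by 123 of the 778 rows, and both members were among them. With 2 reads in control, the cluster made up 0.154% of the 1302 reads of the family (exact 95% interval 0.0186% to 0.554%), and its summed level was 0.0394 RPM with an exact upper limit of 0.142. After TGF-β1 it again had 2 reads, both in replicate 2, or 0.0363 RPM with an upper limit of 0.131. No fold is given, and a change of this cluster was not detectable at this depth.

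The arms of the hairpins in the chromosome 4 cluster were used very unequally. In miR-200b the 5p strand took 18.8%, 29.2% and 25.2% of the reads in control replicates 1 to 3. After TGF-β1 it took 14.3%, 28.6% and 25%, but of only 21, 14 and 8 reads. The share was 24.0% of 450 summed control reads (exact 95% interval 20.1% to 28.2%) and 20.9% of 43 treated reads (10.0% to 36.0%). The log2 ratio of the 3p to the 5p strand averaged 1.61 ± 0.41 in control and 1.36 ± 0.55 after TGF-β1 (SD, n = 3 each), a difference of -0.25 ± 0.40 (SE; exact two-sided permutation p = 0.5, adjusted p = 1). It was -0.026 without control replicate 1, -0.082 and -0.097 without TGF-β1 replicates 2 and 3, -0.43 without control replicate 2 and -0.57 without TGF-β1 replicate 1, and -0.75 and -0.85 with pseudocounts of 0.5 and 1 RPM.

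In miR-200a the 5p strand was near the detection limit. It had 1, 2 and 1 reads in the control libraries, or 0.617% of the 648 control reads of the hairpin (exact 95% interval 0.168% to 1.57%). It had 0 of 68 reads after TGF-β1, for which the exact upper bound was 5.28%. The fall of the whole hairpin to 68 reads leaves too few to see a strand used at the control rate. MiR-200b and miR-200a thus differed in their control arm use, with intervals that did not overlap, although they lie in 1 cluster and their 5p strands have the same seed.

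Other miRNAs associated with epithelia or with kidney tubule were set beside the family. Of 9 such miRNAs listed, 6 were tested. Of these, 0 were called lower, against 7.84% of all 408 tested miRNAs, so that so few miRNAs give no contrast with the family. Called higher were 3 of the 6, against 4.41% of all tested miRNAs. Those 3 were the members of the miR-183 cluster, which is abundant in sensory and other epithelia. MiR-182-5p rose from 54.3 ± 3.35 to 179.8 ± 54.2 RPM, miR-96-5p from 10.8 ± 1.84 to 27.7 ± 1.11 RPM and miR-183-5p from 11.6 ± 0.289 to 27.6 ± 4.76 RPM (SD, n = 3 each), at adjusted p-values of 0.000522, 0.00042 and 0.00066 in limma. The 3 calls were also made with TMM scaling. In control miR-183-5p and miR-96-5p were thus at levels close to that of miR-200a-3p.

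MiR-192-5p and miR-194-5p, which are enriched in kidney tubule and expressed from shared clusters, rose by less than the fold threshold. MiR-192-5p went from 296.9 ± 6.99 to 349.6 ± 11.8 RPM and miR-194-5p from 2.29 ± 0.311 to 3.79 ± 0.618 RPM (SD, n = 3 each), at adjusted p-values of 0.0396 and 0.0186 in limma and log2 differences of 0.23 and 0.54. MiR-215-5p did not pass, at 0.826 ± 0.0882 and 1.06 ± 0.203 RPM (SD, n = 3 each; limma adjusted p = 0.3). The remaining 3 were too low to test. MiR-203-3p and miR-205-5p, defining miRNAs of stratified epithelia, had 3 and 2 reads in control and 2 and 0 after TGF-β1. MiR-375-3p had 25 reads in control and 19 after TGF-β1, or 0.497 ± 0.195 and 0.349 ± 0.0994 RPM (SD, n = 3 each), and its groups overlapped.

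The summed level of the 6 listed epithelial markers outside the miR-183 cluster was 293.5 to 308.3 RPM in control and 342.6 to 365.8 after TGF-β1, nearly all of it miR-192-5p. In bulk RNA, fewer cells that carry the miR-200 family and less of it in each cell cannot be told apart. Of 3 blood cell miRNAs in the table, miR-451, miR-144-3p and miR-486-5p, the sum was 4.43 to 4.98 RPM in control and 2.85 to 3.16 after TGF-β1, nearly all of it miR-486-5p, and the part of such cells in the result was not tested.

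**Figure D4:**
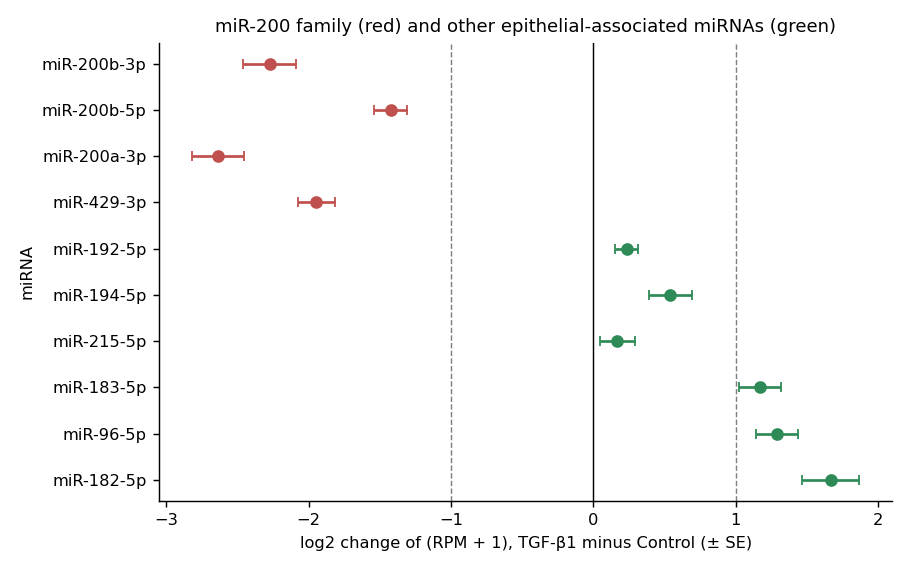
Log2 change of RPM + 1 between TGF-β1-treated and control libraries (points, with SE from limma, n = 3 a group) for the tested miR-200 members in red and the other tested epithelial-associated miRNAs in green; dashed lines mark the threshold of 1. The miR-200 members lie between -2.64 and -1.42, and the green points lie between 0.17 and 1.67.

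The miRNAs outside the family whose values ran most like those of miR-200a-3p were sought by Pearson's r of log2(RPM + 1) over the 6 libraries. They were miR-181c-5p (r = 0.998), miR-351-5p (0.997), miR-181d-5p (0.994), miR-196b-3p (0.993) and miR-3099-3p (0.993). Within the family r was 0.984 for miR-429-3p, 0.976 for miR-200b-3p and 0.975 for miR-200b-5p, so that 15 miRNAs outside it came closer to miR-200a-3p than the members of its own cluster did. The 6 points fall into the treatment groups, and r therefore mostly restates the difference between them. The size of the change was alike in only some of them. On log2(RPM + 1), miR-3099-3p changed by -2.43 and miR-351-5p by -1.87, within the range of the tested members (-2.64 to -1.42). MiR-181c-5p, miR-181d-5p and miR-196b-3p changed by -0.87, -0.98 and -0.54. In RPM, miR-181d-5p went from 846.5 to 429.9 and miR-3099-3p from 28.5 to 4.49.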

How the data were processed

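Small RNA of mouse primary mesangial cells was sequenced on an Illumina instrument. Per the methods of the study, the authors trimmed adaptors, removed reads under 18 nt and of low quality, and compared the rest with known mouse miRNAs of miRBase version 17 using Bowtie, whose version is not given in the sources used here. The authors deposited 1 table of reads scaled to the library total, which they call TPM and which is RPM, because a single read carries an equal value in all rows of a library. Library totals and reads were recovered from these steps, as totals at which 100% of values were whole within 0.002. This was the rule by which a total was chosen, so it is not a check of it. TGF-β1 replicate 1 had 1 such total in the range searched. Every other library had 2, of which the smaller was used.

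Groups were compared with limma 3.58.1 in R 4.3.3, on log2(RPM + 1) with a mean-variance trend and no covariate, over the 408 miRNAs kept by filterByExpr of edgeR 4.0.16 with a minimum count of 10, with Benjamini-Hochberg adjustment over all of them. Calls needed an adjusted p below 0.05 and a log2 difference of more than 1 in size. Alternatives were other scalings, pseudocounts and filters, edgeR and DESeq2 1.42.0 on the recovered reads, a replicate block, and each library left out. Pairs of members were compared with exact permutation tests in scipy 1.17.1, and shares and reads have exact 95% binomial and Poisson intervals. The fits were tested on simulated reads. No libraries of a group agreed within sampling noise. Hairpin positions are from GENCODE vM1 (NCBIM37) and sequences from RefSeq (GRCm38.p6).

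The text names every row of the 5 hairpins, the lists, and the 5 miRNAs most like miR-200a-3p. The members and lists were chosen with earlier results of these data known.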

Additional observations from a re-analysis of the deposited data

How the results depend on the processing

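The 4 tested members kept their direction under every alternative that tested them. All 4 were called lower under 3 other scalings, a pseudocount of 0.1, no filter, edgeR, DESeq2 and the replicate block, and whichever library was left out. A pseudocount of 10 RPM, which is above most of their levels, left 1 of 4 called, and a filter at a mean of 50 reads left 2 members to test, both called. Over all tested miRNAs, 32 were lower and 18 higher. These counts were 54 and 32 with a pseudocount of 0.1 and also with edgeR on library totals, and 15 and 2 with a pseudocount of 10. They were 22 and 31 with median-of-ratios scaling, 41 and 45 with edgeR and TMM, and 31 and 46 with DESeq2. The share of tested miRNAs called lower ran from 3.68% with a pseudocount of 10 to 13.2% with a pseudocount of 0.1 and with edgeR on library totals. It was 4.11% of 778 with no filter and 9.96% of 281 with the filter at a mean of 50 reads. Leaving out each library gave 26 to 41 lower and 15 to 21 higher. The cause of these differences was not tested.

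The difference in log2 ratio between miR-200a-3p and miR-200b-3p reversed from 0.019 to -0.23 with a pseudocount of 0.5 and -0.36 with 1, and ran from -0.49 (without TGF-β1 replicate 3) to 0.32 over the libraries left out. That between miR-429-3p and miR-200b-3p reversed from -0.037 to 0.23 and 0.33 with these pseudocounts, and ran from -0.32 to 0.24. The arm difference of miR-200b was -0.75 and -0.85 with these pseudocounts and ran from -0.57 to -0.026. The log2 ratio of the chromosome 4 cluster sum, -3.49, ran from -3.61 to -3.34 over the alternatives.

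The replicate numbers of the labels pair nothing here: deviations of same-numbered libraries correlated at -0.084, -0.21 and -0.34. With the replicate block 4 members were called lower, 32 miRNAs were lower and 18 higher, and the differences in log2 ratio stayed at 0.019, -0.037 and -0.25. Depth limits what can be said of miR-200a-5p, miR-200c-3p and miR-141-3p, and planned pairs with the last 2 gave no value.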
